A study of Mus musculus with 6 samples.

Results

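The carnitine acyltransferases move fatty acids between compartments as acyl-carnitines. Transcripts of 6 of these enzymes, *Cpt1a*, *Cpt1b*, *Cpt1c*, *Cpt2*, *Crat* and *Crot*, were measured among 84 genes of a real-time PCR array for fatty acid metabolism. They were chosen by their symbols in the array's annotation, and all 6 were under the detection limit of Ct 35 on every plate. In the outer mitochondrial membrane, carnitine palmitoyltransferase 1 joins long-chain acyl groups to carnitine, the step that malonyl-CoA inhibits and that is generally taken to limit mitochondrial beta oxidation. *Cpt1a* encodes the liver isoform, *Cpt1b* the muscle isoform and *Cpt1c* a brain isoform of the endoplasmic reticulum with little activity of this kind. Carnitine palmitoyltransferase 2, encoded by *Cpt2*, reverses the step on the inner membrane and hands the acyl group to beta oxidation. *Crat* encodes carnitine acetyltransferase, which acts on acetyl and other short acyl groups in mitochondria and peroxisomes, and *Crot* encodes the peroxisomal octanoyltransferase, which acts on the medium-chain products of peroxisomal oxidation.

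The cells were 3T3-L1, a mouse preadipocyte line, differentiated into adipocytes with insulin, dexamethasone and IBMX and used on day 14. Of 6 samples, 3 had received 500 ng/ml recombinant murine (rm)IL-15 for 24 hours, and 3 untreated controls had received 0 ng/ml. Sample titles and table headers give these groups, while 1 further label names them the other way round, so every direction given here rests on the titles. Each sample was run on its own plate from 400 ng of RNA, no source used here says that samples of a group were separate cultures, and p-values therefore measure a spread that may be technical. The threshold cycle (Ct) is the cycle at which fluorescence crosses a fixed threshold, so that lower values mean more RNA, by a factor of 2 per cycle where each cycle doubles the product.

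Under Ct 35 were 71 to 74 of the 84 genes per plate. The plates of rmIL-15 replicate 1 and untreated replicate 3 had the highest median Ct of their groups. Over the 84 genes, with Ct held to at most 35, it was 25.8 and 26.2, against 25.4 to 25.7 on the other 4 plates, so that rmIL-15 replicate 1 was close to the others by this measure. After normalization to *Gapdh*, the deviations of these plates from their group means had a correlation of 0.56 across the 74 genes tested, which are not independent replicates. The other 8 pairs of a treated and an untreated plate had correlations of -0.41 to 0.41. The adipocyte markers *Fabp4*, *Lpl*, *Gpd1* and *Lipe* were all measured, with *Fabp4* at Ct 16.4 to 17.1. At an unadjusted p under 0.05 *Lipe* was higher and *Lpl* lower with rmIL-15, with adjusted p = 0.47 and 0.48 by limma. Of the genes listed as markers of other tissues, *Fabp5*, listed for epidermis or macrophage, was at 20.4 to 21.5. *Acsm3* was at 27.2 to 29.6, *Prkag3* at 30.2 to 31.8 and *Fabp3* at 31.0 to 31.9. A place in these lists does not show that adipocytes lack the transcript. *Fabp2* was at 33.5 to the limit, and *Fabp1* and *Acsm2* were not under Ct 35 on any plate. The muscle and brain lists also held *Cpt1b* and *Cpt1c* themselves.

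*Crat* had the most abundant transcript of the family in these adipocytes and *Cpt1b* the least abundant. Ranked by mean Ct among the 84 genes, *Crat* stood at position 17, *Cpt2* at 24, *Crot* at 40, *Cpt1a* at 46, *Cpt1c* at 59 and *Cpt1b* at 67. This order of the 6 genes was found on all 6 plates, 3 of each group. It compares wells with different primer pairs and therefore assumes equal amplification in all of them, since no source used here gives their efficiencies or product lengths.

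*Crat* had a Ct of 23.1, 22.7 and 22.9 in rmIL-15 replicates 1 to 3 and of 22.6, 22.6 and 23.2 in untreated replicates 1 to 3. *Cpt2* followed at 24.6, 23.8 and 24.2 with rmIL-15 and at 23.7, 23.7 and 24.5 without. For *Crot* the Ct was 25.7, 25.3 and 25.6 with rmIL-15 and 25.3, 25.4 and 25.9 without. In these 3 genes and in *Cpt1a* the highest Ct of each group, and so the lowest level, lay on the plates of rmIL-15 replicate 1 and untreated replicate 3. For *Cpt1a* untreated replicate 3 was only just above untreated replicate 1 (26.50 against 26.49). The groups of *Crat*, *Cpt2* and *Crot* overlapped. *Cpt1a*, the Cpt1 isoform with the lowest Ct, was at 26.4, 26.1 and 26.0 with rmIL-15 and at 26.5, 26.0 and 26.5 without, again with overlapping groups. *Cpt1c* was at 28.0, 28.5 and 28.9 with rmIL-15 and at 29.0, 28.6 and 27.7 without. For this gene alone of the 6, the same 2 plates had the lowest Ct of their group. *Cpt1b* was at 31.6, 30.6 and 30.9 with rmIL-15 and at 30.8, 31.0 and 30.8 without, so that the 3 untreated plates lay inside the range of the treated ones. The *Cpt1b* gene lies within an annotated readthrough transcript, *Chkb-Cpt1b*, and the sources used here do not say whether its primers tell the transcripts apart.

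**Figure D1:**
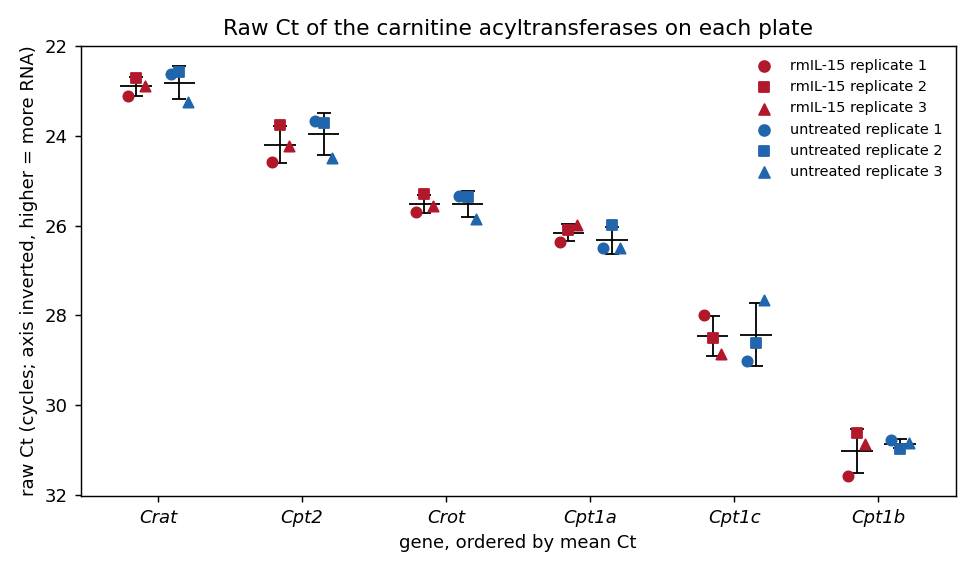
Raw Ct in cycles (y axis, inverted so that more RNA is higher) of the 6 genes (x axis, ordered by mean Ct), with 1 symbol per plate, red for rmIL-15 and blue for untreated, and bars for the mean and SD of 3 plates. *Crat* sits at 22.6 to 23.2 and *Cpt1b* at 30.6 to 31.6, and the groups overlap in every gene.

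Within a plate, the difference between 2 wells needs no reference gene. *Cpt2* was 1.22 ± 0.173 cycles above *Crat* (SD, n = 6 plates), *Crot* 1.45 ± 0.213 above *Cpt2*, and *Cpt1a* 0.724 ± 0.245 above *Crot*. The gaps among the Cpt1 isoforms were wider and less even, with *Cpt1c* 2.20 ± 0.668 cycles above *Cpt1a* and *Cpt1b* 2.50 ± 0.722 above *Cpt1c*. Each of these 5 differences had the same sign on all 6 plates (exact paired permutation test with sign flips, p = 0.03125 for each, two-sided, and 0.03125 after Benjamini-Hochberg adjustment over the 5, the lowest that 6 plates allow). The order was taken from these same plates and was the same on all 6, so each p had to take this value and gives no separate support. The closest neighbours were *Crot* and *Cpt1a*, between 0.437 and 1.16 cycles apart. From *Crat* to *Cpt1b* the mean Ct spanned 8.10 cycles.

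If the 3 primer pairs amplify equally, *Cpt1a* supplied most of the Cpt1 transcript on every plate, *Cpt1c* came next and *Cpt1b* gave a few percent. With a doubling in every cycle, the share of *Cpt1a* in the sum of the 3 isoforms was 73.9%, 81.2% and 85.5% in rmIL-15 replicates 1 to 3 and 81.6%, 83.8% and 66.7% in untreated replicates 1 to 3. The mean was 80.2% ± 5.84 (SD, n = 3) with rmIL-15 and 77.4% ± 9.34 (SD, n = 3) without, a difference of 2.83 points (exact permutation test, two-sided, p = 0.7). The share of *Cpt1c* was 24.1%, 15.3% and 11.6% with rmIL-15 and 14.2%, 13.5% and 30.0% without. Its 2 highest shares came from rmIL-15 replicate 1 and untreated replicate 3, 1 plate of each group, and the other 4 plates lay between 11.6% and 15.3%. *Cpt1b* contributed 2.00% to 4.20%. Without those plates the difference in the share of *Cpt1a* was 0.606 points. If the product grew 1.9 times per cycle instead, the share of *Cpt1a* would run from 64.9% to 83.3%. This sets the same growth for all 3 primer pairs, so the effect of a difference between them was not tested.

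**Figure D2:**
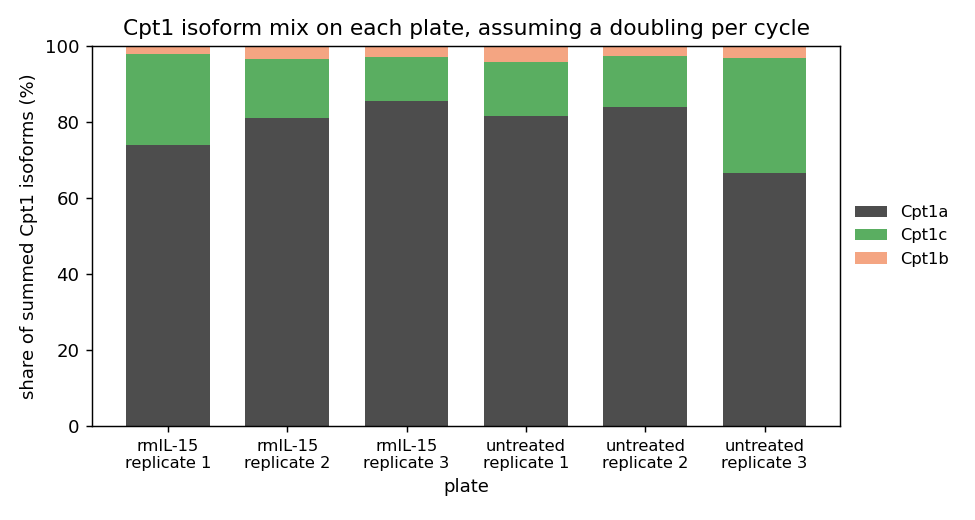
Share of each Cpt1 isoform in the sum of the 3 in percent (y axis) for each of the 6 plates (x axis), assuming a doubling per cycle. *Cpt1a* makes up 66.7% to 85.5%, and *Cpt1c* is highest on the plates of rmIL-15 replicate 1 and untreated replicate 3.

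The genes of the isoforms lie on different chromosomes of the mouse genome (RefSeq, GRCm38.p6), *Cpt1a* at chr19:3322326-3385735, *Cpt1b* at chr15:89416405-89425862 and *Cpt1c* at chr7:44958483-44974880. The others are at chr4:107903982-107923589 (*Cpt2*), chr2:30400476-30416017 (*Crat*) and chr5:8966033-8997146 (*Crot*). Because the isoform mix turned on *Cpt1a* and *Cpt1c*, the 250 bases before the start that RefSeq's promoter windows use are given for each, 5′ to 3′ on the strand of the gene, with the GC box GGGCGG of either strand in capitals. The window of *Cpt1a* is chr19:3323051-3323300 on the plus strand, and that of *Cpt1c* is chr7:44974852-44975101 on the minus strand. For both genes this start lies inside the outer bounds given above, so the *Cpt1a* window falls wholly and the *Cpt1c* window partly within the annotated gene.
Cpt1a: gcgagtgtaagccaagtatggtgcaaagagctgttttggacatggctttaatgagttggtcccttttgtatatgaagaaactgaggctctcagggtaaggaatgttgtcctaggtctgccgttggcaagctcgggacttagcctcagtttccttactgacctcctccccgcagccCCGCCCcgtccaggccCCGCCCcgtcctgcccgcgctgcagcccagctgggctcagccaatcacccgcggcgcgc
Cpt1c: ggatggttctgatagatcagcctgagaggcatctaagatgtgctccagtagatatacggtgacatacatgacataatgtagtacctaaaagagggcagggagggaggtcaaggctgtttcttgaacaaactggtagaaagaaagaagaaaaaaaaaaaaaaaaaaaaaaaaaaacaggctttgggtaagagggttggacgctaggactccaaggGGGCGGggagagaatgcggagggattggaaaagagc
The *Cpt1a* window held 59.6% G and C, 14 CpG and 2 GC boxes, and the *Cpt1c* window 44.0% G and C, 4 CpG and 1 GC box. Windows were also given for *Crot*, with 69.6% G and C and 2 GC boxes, and *Cpt2*, with 56.8% and 2. The median over 32851 windows of this length was 52.4% G and C, and 32.7% of them held the GC box. The string CCAAT was found on either strand in the windows of *Cpt1a*, *Cpt1c* and *Crot*, and in 33.8% of all windows. TATAAA, in 12.4% of all windows, and the direct repeat AGGTCA, any base, AGGTCA, in 0.0335%, were in none of the 4. None of these strings contains another, and a match is a description of the letters only.

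The array asked whether 24 hours of rmIL-15 changed the transcripts of fatty acid metabolism in mature adipocytes. None of the 6 carnitine acyltransferases passed the test between rmIL-15 and untreated adipocytes. For this test each Ct was set against the plate's well annotated *Gapdh*, since the methods name GAPDH. The log2 fold change was then fitted with limma over the 74 genes for which every sample of either group or both was under Ct 35. That well had a mean Ct of 25.4 with rmIL-15 and 25.5 without, whereas the other 4 reference wells had mean Ct values of 18.5 to 20.3. Whether the deposited annotation names the reference wells correctly could not be settled here, so every value set against this well rests on its label. The normalized values that the authors deposited have the well annotated *B2m* as their reference and are given beside it. At an unadjusted p under 0.05 limma called 0 of the 6 genes, against 7 of the 74 tested genes, or 9.46%, of which 6 (8.11%) were lower and 1 (1.35%) higher with rmIL-15. At an adjusted p under 0.05 it called 0 of the 74, and the methods' t-test also called 7 at an unadjusted p under 0.05. Of the 6 genes 5 had a log2 fold change below 0, as did 71.6% of all tested genes. The median log2 fold change was -0.09 over the 6 and -0.11 over the 74.

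*Cpt2* was closest to the threshold, with lower values after rmIL-15. Its Ct minus that of *Gapdh* was -1.04, -1.40 and -1.30 with rmIL-15 and -1.58, -1.48 and -1.48 without, so that every treated plate lay above every untreated one. *Cpt2* was the only one of the 6 whose groups did not overlap in this direction, as in 14.9% of the tested genes, while none of the 6 separated in the other direction, as 2.7% of the tested genes did. The two-sided exact permutation test gave p = 0.1, the lowest that can be had from 3 samples against 3. The log2 fold change was -0.27 (standard error 0.13, unadjusted p = 0.092, adjusted p = 0.58 by limma), a level of 0.831 of the untreated one with a 95% interval of 0.663 to 1.04. With the authors' normalized values, *Cpt2* was at 5.86, 5.41 and 5.75 with rmIL-15 and at 5.35, 5.21 and 5.72 without. On this scale a lower value stands for more RNA, the groups overlapped, and the log2 fold change was -0.25 (standard error 0.21, adjusted p = 0.84 by limma). Raw Ct of *Cpt2* overlapped as well and was 0.237 cycles higher with rmIL-15 (exact permutation test, two-sided, p = 0.5).

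*Cpt1a* was the only member with a positive sign. Its Ct minus that of *Gapdh* was 0.746, 0.942 and 0.475 with rmIL-15 and 1.24, 0.805 and 0.535 without. The log2 fold change was 0.14 (standard error 0.23, adjusted p = 0.84 by limma), or 1.10 times the untreated level with a 95% interval of 0.748 to 1.62. By this measure untreated replicate 1 had the lowest *Cpt1a* level of all plates, and without it the log2 fold change was -0.05. In raw Ct untreated replicates 1 and 3 were alike (26.49 and 26.50). Without untreated replicate 1 the raw Ct was still 0.087 cycles lower with rmIL-15. With all plates and the authors' normalized values the log2 fold change was 0.16 (standard error 0.21, adjusted p = 0.86 by limma), and with *Hsp90ab1* alone as reference it was -0.21. That reference moved the median of all tested genes by -0.35 on the log2 scale and *Gusb* alone moved it by 0.10, and no other reference well by as much as 0.10.

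*Crat* and *Crot* had the smallest standard errors of the family, and those with the authors' normalized values were 0.16 and 0.15. The log2 fold change of *Crat* was -0.11 (standard error 0.11, adjusted p = 0.71 by limma), and its level was 0.924 of the untreated one with a 95% interval of 0.769 to 1.11. *Crot* was at -0.03 (standard error 0.12, adjusted p = 0.95 by limma), or 0.976 with an interval of 0.796 to 1.197. Both intervals included no change, and with 3 samples a group the changes inside them cannot be told apart. By pooled SD within groups, *Crat* at 0.0783 cycles ranked 71 and *Crot* at 0.109 cycles ranked 67 from the most variable of the 74 genes, whose median SD was 0.221 cycles. *Cpt2*, at 0.137 cycles, ranked 62. These ranks depend on the reference, since in raw Ct the pooled SD was 0.294 cycles for *Crat*, 0.256 for *Crot* and 0.441 for *Cpt2*, and *Cpt1a* had the smallest of the 6, 0.251.

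*Cpt1c* was measured with the least precision, and that of *Cpt1b* depended on the reference. The log2 fold change of *Cpt1b* was -0.20 (standard error 0.29, adjusted p = 0.82 by limma), with a 95% interval of 0.530 to 1.43 times the untreated level. With the authors' normalized values the standard error of *Cpt1b* was 0.22, close to that of *Cpt1a* and *Cpt2*. *Cpt1c* was at -0.06 (standard error 0.61, adjusted p = 0.97 by limma), with an interval of 0.337 to 2.73 times. *Cpt1c* had a pooled SD of 0.888 cycles, rank 7 of the 74 genes. Its Ct minus that of *Gapdh* was 2.37, 3.35 and 3.35 with rmIL-15 and 3.77, 3.44 and 1.69 without, and rmIL-15 replicate 1 and untreated replicate 3 lay below the other 4 plates, which spanned 3.35 to 3.77. Without untreated replicate 3 the log2 fold change of *Cpt1c* was 0.58, without rmIL-15 replicate 1 it was -0.46, and without both it was 0.25 (unadjusted p = 0.19 by limma). *Cpt1b* was at -0.02 without rmIL-15 replicate 1, at 0.07 without untreated replicate 3 and at 0.25 without both (unadjusted p = 0.17 by limma). The part of these plates in the results of *Cpt1c* and *Cpt1b* was not tested further.

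**Figure D3:**
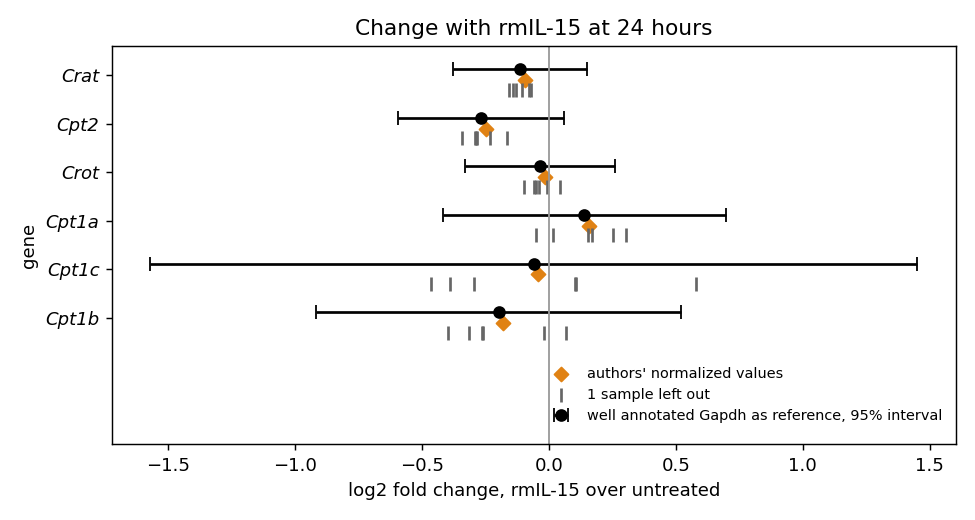
Log2 fold change of rmIL-15 over untreated (x axis) for each gene (y axis), with the 95% interval of limma for the well annotated Gapdh as reference (black), the value from the authors' normalized Ct (orange) and the values with 1 sample left out (grey ticks). All 6 intervals include 0, and they run from -0.38 to 0.15 for *Crat* and from -1.57 to 1.45 for *Cpt1c*.

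The balance between members was compared without a reference, by the within-plate Ct difference of each of the 15 pairs. In no pair did the groups separate, and the smallest p was 0.2 by two-sided exact permutation tests. After Benjamini-Hochberg adjustment over the 15 pairs p was 0.9 for each. The lowest p that this test can give with these group sizes is 0.1, before and after adjustment. No pair could therefore have passed the threshold used for single genes, and the p-values do not show that the balance was unchanged. The share of separated pairs among all tested genes is not given here for comparison. With all plates the largest shift was between *Cpt1a* and *Cpt2*, the outer and inner membrane steps of the same shuttle. *Cpt1a* was 1.79, 2.34 and 1.77 cycles above *Cpt2* with rmIL-15 and 2.83, 2.28 and 2.01 cycles without. The means were 1.97 ± 0.324 (SD, n = 3) and 2.37 ± 0.417 (SD, n = 3), a shift of -0.41 cycles with p = 0.3 by a two-sided exact permutation test. Untreated replicate 1 set the upper end of this difference, and the other 5 plates lay between 1.77 and 2.34 cycles. Without it the shift was -0.18 cycles, smaller than those of *Cpt1a* from *Cpt1c* (-0.41) and of *Cpt1c* from *Crot* (0.41).

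*Crat* and *Crot* kept almost the same distance on every plate. *Crot* was 2.60, 2.61 and 2.67 cycles above *Crat* with rmIL-15 and 2.70, 2.78 and 2.63 cycles without. The mean was 2.63 ± 0.0362 (SD, n = 3) with rmIL-15 and 2.70 ± 0.0743 (SD, n = 3) without. The difference of 0.0787 cycles was larger than either SD, but the groups overlapped (exact permutation test, two-sided, p = 0.2). Over the 6 plates the SD of this difference was 0.0677 cycles, the smallest of the 15 pairs. *Cpt2* and *Crat* came next, with an SD of 0.173 cycles, and *Cpt1c* and *Cpt2* had the largest, 0.880 cycles. The plates share their RNA input across all wells, and in this measure genes with little variation of their own come out close to each other.

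**Figure D4:**
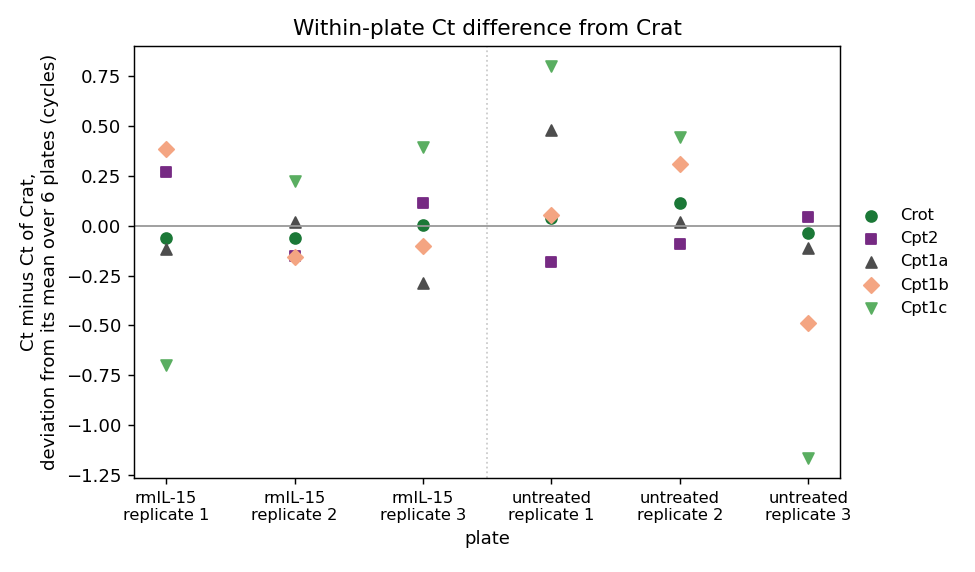
Ct of each gene minus the Ct of Crat on the same plate, as the deviation in cycles from its mean over the 6 plates (y axis), for each plate (x axis), with 1 symbol per gene. *Crot*, 2.60 to 2.78 cycles above *Crat*, stays close to 0 on all plates, and *Cpt1c* is lowest on the plates of rmIL-15 replicate 1 and untreated replicate 3.

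The same measure, the SD over 6 plates of the within-plate Ct difference, gave for each member the genes with the most similar pattern among the other 73 tested. *Cpt2* ran closest to *Eci2*, an enoyl-CoA isomerase, at an SD of 0.0658 cycles, and to *Decr1*, the mitochondrial dienoyl-CoA reductase, at 0.0715. The median over the 73 genes was 0.268 cycles for *Cpt2*. *Crat* ran closest to *Echs1*, the mitochondrial short-chain enoyl-CoA hydratase, at 0.0587, and then to *Crot*. *Crot* ran closest to *Crat* and then to *Prkacb*, a catalytic subunit of protein kinase A, at 0.0748. The medians of *Crat* and *Crot* over the 73 genes were both 0.253 cycles. *Cpt1a* had *Pecr*, a peroxisomal enoyl-CoA reductase, at 0.156 and *Fabp4*, the adipocyte fatty acid binding protein, at 0.160, against a median of 0.407. *Cpt1b* had *Prkab2*, a subunit of AMP-activated kinase, at 0.213 and *Mcee*, methylmalonyl-CoA epimerase, at 0.228, against a median of 0.373. For *Cpt1c* the nearest, *Acat1* of mitochondrial thiolysis and *Acsm5*, a medium-chain acyl-CoA synthetase, were at 0.467 and 0.484, and the median was 0.818. No other member was among the nearest 2 genes of *Cpt1a*, *Cpt1b*, *Cpt1c* or *Cpt2*. Among the 73 genes ranked by nearness to *Cpt2*, *Cpt1a* was at rank 50, and by nearness to *Cpt1a*, *Cpt2* was at rank 36.

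On both sides of the shuttle no gene passed an adjusted p under 0.05, and counts at an unadjusted p under 0.05 are set beside the 9.46% of all tested genes that passed it (8.11% lower, 1.35% higher). Of the long-chain acyl-CoA synthetases, which make the substrate of Cpt1, 1 of 4 tested was lower and none was higher at an unadjusted p under 0.05. This was *Acsl3* (log2 fold change -0.51, standard error 0.15, adjusted p = 0.47 by limma), while *Acsl1*, with the lowest Ct, was at -0.52 (standard error 0.26, adjusted p = 0.58 by limma). Of 12 genes of mitochondrial beta oxidation that act after *Cpt2*, 1 was lower and none higher, and the median log2 fold change of the 12 was -0.19. The lower one was *Acadm*, the medium-chain acyl-CoA dehydrogenase, at -0.40 (standard error 0.13, adjusted p = 0.47 by limma), which also had the lowest Ct. Of 9 peroxisomal genes, a list that counts *Crat* and *Crot*, 1 was lower and none higher, with a median of -0.04. This was the oxidase *Acox2*, at -0.66 (standard error 0.11, adjusted p = 0.11 by limma). None of the 7 subunits of AMP-activated kinase, which lowers malonyl-CoA, passed in either direction. *Prkag3* had the smallest p, at 0.78 (standard error 0.32, adjusted p = 0.48 by limma), and *Prkaa1* had the lowest Ct, with a log2 fold change of -0.11. Of 7 ketone body genes 2 were lower and none higher, *Acat2* at -0.49 (standard error 0.18, adjusted p = 0.47 by limma) and *Hmgcs1* at -0.32 (standard error 0.12, adjusted p = 0.48 by limma).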

How the data were processed

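RNA from 3 rmIL-15 treated and 3 untreated samples was assayed on PCR plates of 96 wells with SYBR green, 1 plate per sample. The authors deposited the raw Ct of each well and, in a second table, normalized Ct on a log2 scale, where lower stands for more RNA. The latter equals the Ct held to at most 35 minus that of the well annotated *B2m*, although the table's header speaks of a housekeeping average. Their table of comparisons, which gives a fold change per gene, and 6 further columns of per-sample values were not used.

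Values above 35, or undetermined, were held at 35, and the difference from the well annotated *Gapdh* was taken with its sign reversed. The 74 of 84 genes for which every sample of either group or both was under 35 were fitted with limma 3.58.1 in R 4.3.3, which gave the standard errors, and p-values were adjusted by Benjamini-Hochberg. The script was tested on simulated data. Within-plate differences, isoform shares and raw Ct were compared with exact permutation tests. The RefSeq accessions of all 6 members matched the mouse annotation of GRCm38.p6, and 4 of the 6 had a promoter window there. Plots were made in Python 3.11.15 with matplotlib 3.10.9.

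The members, gene lists and tests were chosen with earlier results of these data known. The text names the members, the reference wells and the markers, in each list the gene with the smallest p and that with the lowest Ct, and for each member the 2 genes of most similar pattern, except for items that are not reported here. The fit was repeated with other references or none, with other limits and filters on Ct, with a robust variance, as the methods' t-test, with a block for the replicate number and without each sample in turn. A fit without both rmIL-15 replicate 1 and untreated replicate 3 was chosen after seeing the data. Same-numbered samples had correlations of -0.27, 0.09 and -0.28 in their deviations from the group means, and were not treated as pairs. The tables hold 1 value per well and sample, and a doubling per cycle was assumed.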

Additional observations from a re-analysis of the deposited data

How the results depend on the processing

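No member passed an unadjusted p under 0.05 in any of the 22 alternative fits. Among these, the authors' normalized values and *B2m* alone are the same fit and do not count as separate support. *Cpt2* and *Crat* kept a negative log2 fold change in all of them. The sign turned for *Cpt1a* with *Hsp90ab1* alone (-0.21), and with *Gusb* alone for *Cpt1c* (0.0441) and *Crot* (0.0686). Without rmIL-15 replicate 1 and untreated replicate 3 together it turned for *Cpt1b* (0.25), *Cpt1c* (0.25) and *Crot* (0.04), and so did the shifts in Ct difference of *Cpt1b* from *Crat* (-0.31) and *Crot* (-0.20) and of *Cpt1c* from *Crot* (-0.21). The shift of *Cpt1b* from *Cpt2* moved to -0.43. The cause was not tested. The count of 7 genes of all tested was 3 with the authors' normalized values, and so with *B2m* alone, 3 with raw Ct and 2 with *Hsp90ab1* alone. With the replicate number as a block it was 4 and no member passed, though the samples share only a number.

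When 1 sample was left out, the count was 4 to 7, and the log2 fold change ran from -0.0513 to 0.30 for *Cpt1a*, -0.40 to 0.07 for *Cpt1b*, -0.46 to 0.58 for *Cpt1c*, -0.34 to -0.16 for *Cpt2*, -0.16 to -0.07 for *Crat* and -0.10 to 0.0449 for *Crot*. Raw Ct differences ran from -0.11 to 0.37 cycles for *Cpt1b*, -0.36 to 0.32 for *Cpt1c*, 0.04 to 0.51 for *Cpt2*, -0.0319 to 0.29 for *Crat* and -0.0878 to 0.18 for *Crot*, and the difference in *Cpt1a* share from -2.53 to 6.06 points. Shifts in within-plate Ct difference ran from -0.59 to -0.18 for *Cpt1a* and *Cpt2*, -0.54 to 0.28 for *Cpt1a* and *Cpt1c*, -0.27 to 0.000352 for *Cpt1a* and *Crot*, -0.37 to 0.51 for *Cpt1b* and *Cpt1c*, -0.35 to 0.11 for *Cpt1b* and *Cpt2*, -0.14 to 0.26 for *Cpt1b* and *Crat*, and -0.02 to 0.30 for *Cpt1b* and *Crot*. For *Cpt1c* they ran from -0.86 to 0.23 against *Cpt2*, -0.65 to 0.33 against *Crat* and -0.535 to 0.41 against *Crot*. The order of levels kept its sign, with gaps of 1.17 to 1.25 cycles (*Crat* to *Cpt2*), 1.40 to 1.51 (to *Crot*), 0.637 to 0.782 (to *Cpt1a*), 2.07 to 2.41 (to *Cpt1c*) and 2.29 to 2.65 (to *Cpt1b*), but 5 plates cannot reach a p under 0.05. Every 95% interval included no change. With 3 samples a group the changes inside an interval cannot be told apart, and that of *Cpt1c* was the widest.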
